A study of Mus musculus with 3 samples.

Results

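The change from definitive endoderm to early hepatic cells was followed on a pair of arrays, by setting the signal of each gene on day 7 against its signal on day 5. Of 28578 gene names with a value on all 3 arrays of the series, 20736 could be compared, because on the brighter of the 2 arrays the probe was clearly detected (marked as well above background). All cells came from E14.1, a line of mouse embryonic stem (ES) cells, and 1 array was hybridised per day, with no replicate. The day 0 cells were ES cells held in a serum-free N2 and B27 medium with 10 ng/ml BMP4 and 1000 U/ml of the cytokine LIF. The day 5 cells, labelled definitive endoderm, had grown on collagen IV with 30 ng/ml activin A in place of BMP4 and LIF. The day 7 cells, labelled early hepatic cells, had spent 2 further days with activin A still at 30 ng/ml and with 30 ng/ml BMP4 and 10 ng/ml bFGF added. No day 7 sample on activin A alone is analysed here, so effects of the added factors and of longer culture cannot be told apart. The labels name no sorting step, so the RNA is that of the whole culture. Fewer cells of a type and less RNA per cell cannot be told apart in such RNA.

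Definitive endoderm is the embryonic layer that forms the lining of the gut and, by budding from the ventral foregut, the liver. In the embryo, BMP from the septum transversum mesenchyme and FGF from the developing heart act on foregut endoderm, whose cells then begin to make fetal serum proteins such as alpha-fetoprotein and albumin. Activin A signals through the receptors and Smad proteins that also serve Nodal, the signal that induces endoderm. The visceral endoderm of the yolk sac, a separate and extraembryonic layer, makes many of the same serum proteins as fetal liver.

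Signals are given as normalised log2 signal, the log2 of the scanner's processed intensity minus the array's 75th percentile, so that 0 is that percentile. A difference of 1 on this scale is 2-fold. Where a probe was not well above background on the dimmer array, the difference is a bound and is written "at least". Such a bound holds for the main setting only and can be smaller under another background correction. On each array, between 70.9% and 71.7% of the 43379 gene spots were so marked, and no gene spot was saturated. The replicate error between cultures is unknown. The sole measured spread is technical: probes printed as 10 spots had a median spot SD of 0.076 on day 5 and 0.077 on day 7 (log2). Over the 19130 genes well above background on both arrays, the median difference was -0.09, and the central 80% of differences ran from -0.82 to 0.59.

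On day 7, 1292 of the 20736 genes (6.23%) were at least 2-fold higher than on day 5, and 1815 (8.75%) were at least 2-fold lower. The counts in gene lists below are to be read beside these shares. Subtracting each array's median in place of its 75th percentile turned this balance, to 1565 higher and 1479 lower. For 281 of the higher and 384 of the lower genes only a bound was available. At 8-fold or more, 201 genes were higher and 209 lower, and at 32-fold or more, 32 were higher and 13 lower. Close to the limit, 179 genes were higher by 2-fold to 2.2-fold and 271 by 1.8-fold to 2-fold. With each gene list below, the counts are of genes at least 2-fold higher or lower, and the median is set beside -0.09 for all genes compared. The lists were compiled from textbook roles, but with earlier results of these data known, so their shares are no independent check. They share some genes, and none was tested. Members dim on both arrays are left out of a list's counts.

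**Figure D1:**
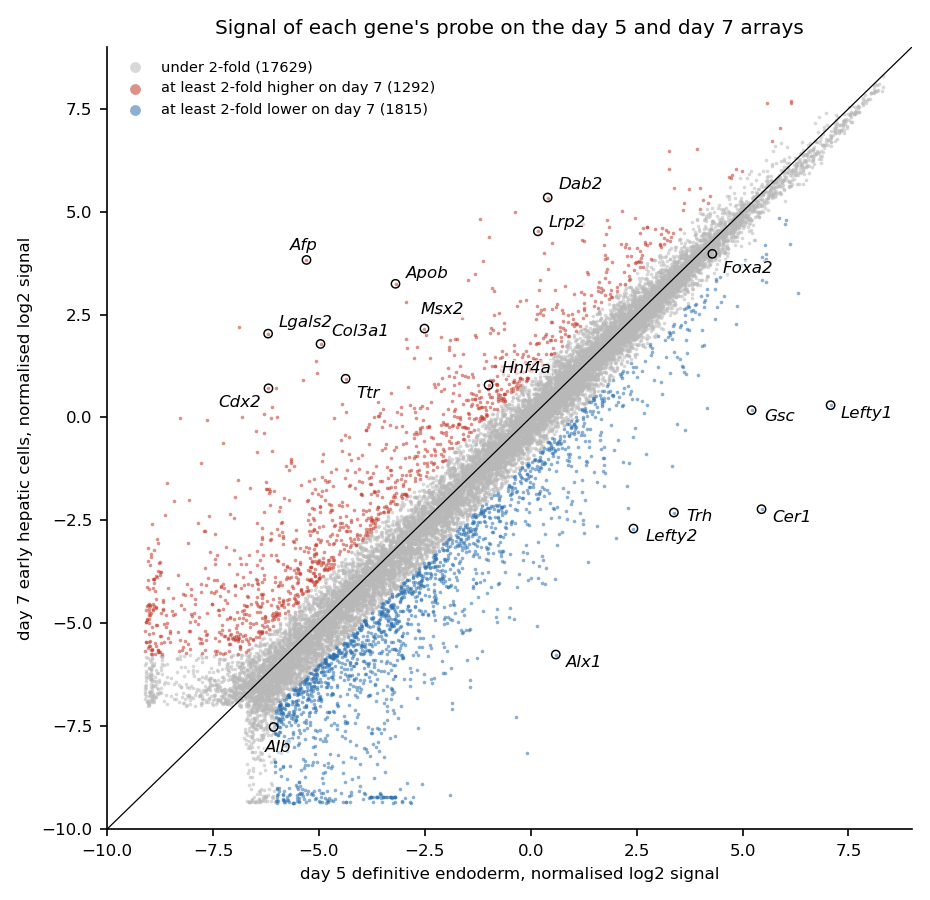
Normalised log2 signal of 20736 genes on the day 5 array (horizontal axis) and the day 7 array (vertical axis), 1 point per gene, with the 1292 genes at least 2-fold higher on day 7 in red and the 1815 lower ones in blue. Afp, Lgals2 and Cdx2 lie farthest above the line of equal signal among the genes circled, Cer1 and Lefty1 lie farthest below it, and Foxa2 lies close to it.

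Among single genes, Afp, which encodes alpha-fetoprotein, a serum protein that the yolk sac and the fetal liver secrete in quantity, showed the greatest measured difference. On days 0, 5 and 7 it stood at -5.95 ± 0.239, -5.29 ± 0.128 and 3.83 ± 0.085 (mean ± SD over 10, 10 and 9 spots, which is technical spread within an array). Day 7 alone was high, 557-fold above day 5. The Afp probe lies on chromosome 5 at 90937781 to 90937840 (mm9). The galectin gene Lgals2 followed (301-fold), then the caudal homeobox factor Cdx2 (119-fold), the fibrillar collagen Col3a1 (108-fold), the vitamin D carrier Gc (105.2-fold), Apob and the matrix protein periostin (Postn), each close to 87-fold. The next were Fmo1, a flavin monooxygenase (83.2-fold), the kinase gene Nrk (81.4-fold), Asb12 (78.6-fold), Ctla2a (71.8-fold), the neuropeptide precursor Pnoc (70.4-fold), the transcription factor Tfec (70.0-fold), Glipr1 (69.3-fold) and Ankrd1 (63.8-fold). Among genes dim on day 5, the name ccdc198 was at least 495-fold higher, Timd2, a ferritin receptor, at least 110-fold, Dram1 at least 109-fold and Hoxb2 at least 103-fold. Unc5c, a netrin receptor, was at least 71.1-fold higher, the Wnt antagonist Dkk2 at least 50.7-fold, the antimicrobial peptide gene Leap2 at least 38.2-fold and the matrix proteoglycan Lum at least 36.3-fold. Folds of dim genes depend on the background correction. With normexp, a model-based correction refitted here without spots darker than their surroundings, Afp was higher by 7.97, Lgals2 by 6.50, Apob by 6.04, Col3a1 by 5.82, Cdx2 by 5.28 and Gc by 5.21 on the log2 scale, against 9.12, 8.24, 6.44, 6.75, 6.90 and 6.72 in the main setting. The bounds became log2 differences of 6.88 (ccdc198), 4.79 (Timd2), 4.97 (Dram1), 4.79 (Hoxb2), 4.11 (Unc5c), 3.87 (Dkk2), 2.96 (Leap2) and 3.56 (Lum).

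On the other side, the secreted Nodal inhibitors Cer1 and Lefty1 had the greatest decreases among genes measured on both arrays, and the inhibitor Lefty2 was also far lower. Cer1, which also binds BMP and Wnt proteins, stood at -8.92 on day 0 (not well above background), 5.45 on day 5 and -2.23 on day 7, and was 205-fold lower on day 7 than on day 5. Lefty1 stood at 0.06, 7.08 and 0.30, 110-fold lower, and Lefty2 at 0.45, 2.42 and -2.70, 34.9-fold lower. In Lefty1 the day 7 signal was back near that of day 0, while in Lefty2 it lay below it. The homeobox genes Alx1 (81.6-fold lower) and Gsc (32.8-fold lower), the thyrotropin-releasing hormone gene Trh (51.6-fold lower), the neurotrophin receptor gene Ntrk2 (36.8-fold lower) and the cadherin-related gene Cdhr1 (30.6-fold lower) were also among the lowest. They were followed by Tph1, a serotonin synthesis enzyme (29.2-fold lower), the ES cell factor Esrrb (24.0-fold), the erythroid factor Gata1 (23.1-fold), Shisa2 (22.9-fold), Cpsf4l (22.8-fold), Best2 (22.7-fold) and Nebl (22.5-fold). One other Esrrb probe was lower by less than 2-fold (-0.92 on the log2 scale). Among genes dim on day 7, Lrrc25 was at least 124-fold lower, Prg2 at least 103-fold, the germ cell gene Morc1 at least 36.0-fold, the gastrin-releasing peptide gene Grp at least 35.1-fold and netrin 1 (Ntn1) at least 33.6-fold. Krt80, Armc3 and Dlg2 were lower by at least 20.9-fold, 17.5-fold and 16-fold. These bounds shrank under refitted normexp, to log2 differences of -4.71 (Lrrc25), -4.43 (Prg2), -2.96 (Morc1), -3.14 (Grp), -2.97 (Ntn1), -2.18 (Krt80), -2.10 (Armc3) and -2.37 (Dlg2). Alx1 (-4.87) and Ntrk2 (-4.23) shrank as well, while Cer1 (-7.44) and Lefty1 (-6.73) moved little.

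**Figure D2:**
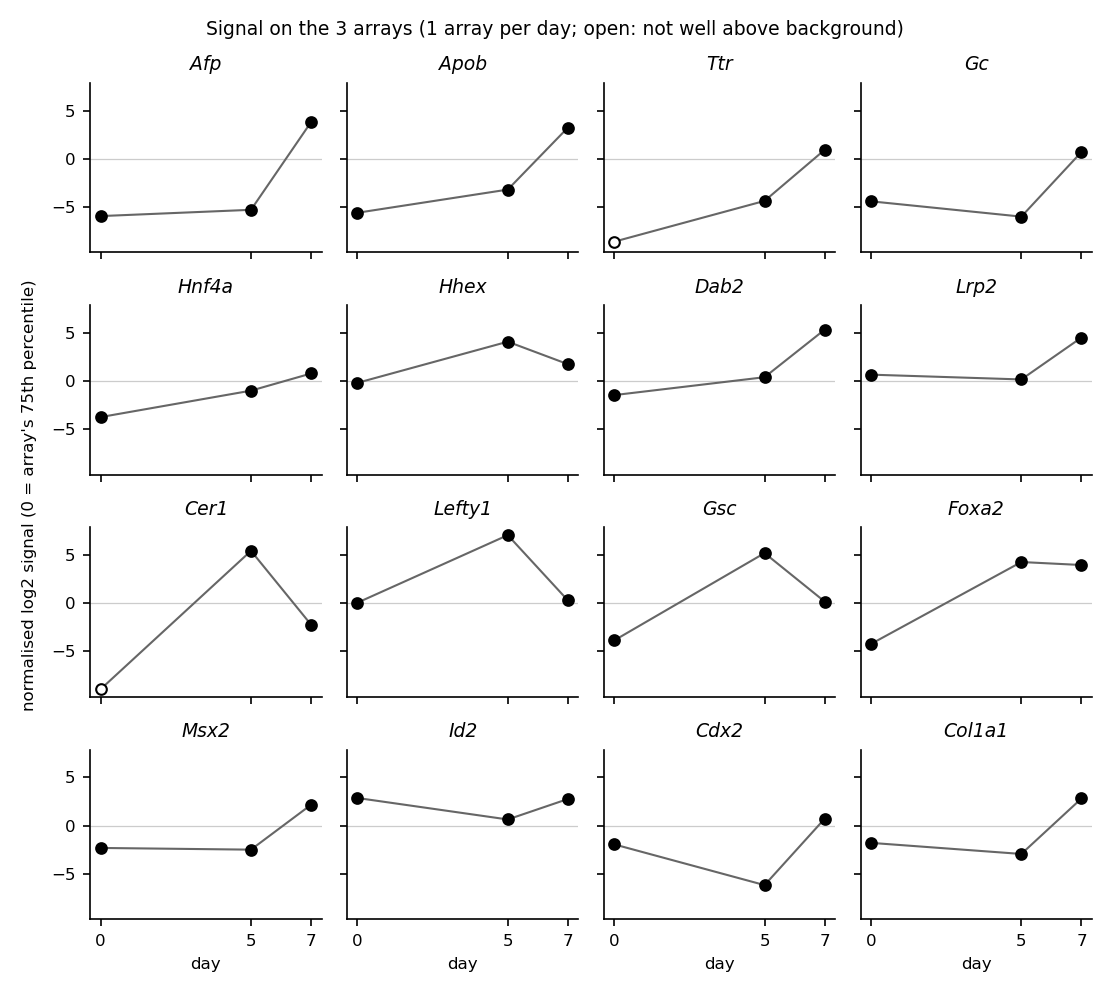
Normalised log2 signal (vertical axis, 0 being the array's 75th percentile) on days 0, 5 and 7 for 16 genes, 1 array per day, with open points for a probe not well above background. Afp, Apob, Ttr and Gc are high on day 7 alone, Cer1, Lefty1 and Gsc peak on day 5, and Cdx2 and Id2 are lowest on day 5.

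GATA factors act in visceral endoderm, in definitive endoderm and in liver. To show what their sites look like, the promoters of 4 genes higher on day 7 that hold the letters of a GATA site are printed, those of the serum protein genes Fgb and Apoc2 and of the visceral endoderm genes Dab2 and Tfec. Each is the stretch of 250 bases before the gene start in RefSeq's table for the assembly GRCm38.p6, read 5′ to 3′ on the gene's own strand, with the GATA letters, TGATAA in all 4, in capitals. Fgb lies at chr3:83049864-83050113 (minus strand), Apoc2 at chr7:19677942-19678191 (minus strand), Dab2 at chr15:6299539-6299788 (plus strand) and Tfec at chr6:16898442-16898691 (minus strand).
Fgb: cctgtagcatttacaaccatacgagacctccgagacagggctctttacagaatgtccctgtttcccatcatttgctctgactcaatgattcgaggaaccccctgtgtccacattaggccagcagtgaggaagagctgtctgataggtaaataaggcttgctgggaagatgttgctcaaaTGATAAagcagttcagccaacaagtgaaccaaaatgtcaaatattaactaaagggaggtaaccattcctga
Apoc2: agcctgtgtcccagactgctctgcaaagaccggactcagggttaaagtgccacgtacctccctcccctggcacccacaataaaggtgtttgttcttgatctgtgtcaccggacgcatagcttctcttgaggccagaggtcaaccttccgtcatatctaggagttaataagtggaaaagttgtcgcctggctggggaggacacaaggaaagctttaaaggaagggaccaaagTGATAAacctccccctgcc
Dab2: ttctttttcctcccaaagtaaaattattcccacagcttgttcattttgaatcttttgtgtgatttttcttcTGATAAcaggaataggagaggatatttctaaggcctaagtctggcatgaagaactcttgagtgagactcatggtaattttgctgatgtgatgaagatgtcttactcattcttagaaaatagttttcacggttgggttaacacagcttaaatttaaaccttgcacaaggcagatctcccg
Tfec: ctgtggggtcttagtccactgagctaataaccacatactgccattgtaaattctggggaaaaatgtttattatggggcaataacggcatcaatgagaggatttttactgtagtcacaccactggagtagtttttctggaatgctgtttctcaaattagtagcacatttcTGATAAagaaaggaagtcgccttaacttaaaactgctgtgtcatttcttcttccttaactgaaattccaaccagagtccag
Each window holds 1 match. Counted from 1 at the window's 5′ end, it begins at base 180 in Fgb, 232 in Apoc2, 72 in Dab2 and 170 in Tfec. Counted on both strands, AGATAA or TGATAA occurs in 16.6% of all 32851 promoters in the table. It occurs in 12.8% of the 12396 compared genes with a promoter there, in 17.8% of the 779 genes higher on day 7 and in 13.7% of the 1073 lower genes. The letters TGTTTAC or TATTTAC, of FOXA sites, occur in 4.85% of the compared, 6.03% of the higher and 4.75% of the lower genes. CAGACA, of SMAD sites, occurs in 16.4%, 18.7% and 20.1%, and AATCCACA or AATACACA, of FOXH1 sites, in 1.39%, 2.70% and 1.49%. For TTTATG or TTTACG, of CDX sites, the shares were 11.7%, 13.1% and 11.9%, for the TATA box letters TATAAA 10.1%, 15.4% and 12.8%, and for GGCNCC, of SMAD sites in BMP-responsive genes, 67.3%, 63.9% and 66.6%. The corresponding shares of all promoters are 5.76% (FOXA), 17.1% (CAGACA), 1.61% (FOXH1), 13.1% (CDX), 12.4% (TATA box) and 49.7% (GGCNCC). CAAAGTCCA, of HNF4 sites, occurs in 0.384% of all promoters, 0.500% of the compared, 0.770% of the higher and 0.932% of the lower genes. Among the 122 genes at least 8-fold higher, the shares were 23.8% (GATA), 9.84% (FOXA), 19.7% (CAGACA), 0.820% (FOXH1), 10.7% (CDX), 17.2% (TATA box), 54.9% (GGCNCC) and 0 for HNF4. The FOXA and CDX letters can overlap, and 8 motif definitions are given here. A match describes these letters only and is no evidence that a factor binds.

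The plasma protein list asks how far the day 7 cells had begun to make what liver and yolk sac secrete. Of its 32 genes, 25 could be compared, 10 were higher and 4 lower on day 7, with a median difference of 0.58. The 7 others (Apoa2, Apoh, Cp, Fga, Itih2, Lipc and Serpina1b) were dim on both arrays. Apob, the structural protein of liver and yolk sac lipoproteins, stood at -5.60, -3.19 and 3.25 on days 0, 5 and 7 and was 86.8-fold higher on day 7 than on day 5. All 4 of its other probes were higher too, by 4.37 to 6.13 on the log2 scale, bounds included. Ttr, the thyroid hormone carrier, stood at -8.60 (not well above background), -4.37 and 0.94, a 39.6-fold difference. Gc stood at -4.41, -6.0 and 0.72, so that its day 5 signal was the lowest of the 3. The lipoprotein lipase activator Apoc2 was 35.7-fold, the fibrinogen chain Fgb 22.5-fold and Apom 18.5-fold higher. The apolipoproteins Apoc3 (3.14-fold), Apoa4 (3.12-fold) and Apoe (2.89-fold) differed less, and Apoe stood at 6.32, 6.15 and 7.69, high on all 3 days.

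Other serum proteins did not follow. Alb, which encodes albumin, stood at -8.53, -6.07 and -7.52, and was well above background on day 5 alone. Its bound was 1.96-fold lower on day 7, under the 2-fold limit. Ambp was 4.39-fold lower, the kininogen gene Kng1 2.67-fold, vitronectin (Vtn) at least 2.42-fold and the retinol carrier Rbp4 2.40-fold lower. Refitted normexp brought Kng1 and Vtn below 2-fold (-0.51 and -0.45). Apoa1, the main protein of high-density lipoprotein, had differences of 0.32, Trf of 0.03, Ahsg of 0.58, Serpinc1 of 0.08, prothrombin (F2) of 0.27, Hpx of 0.86, Serpinf2 of 0.61, Fetub of -0.89 and Fgg of -0.91 on the log2 scale, all under 2-fold. So the chains of fibrinogen, which are secreted as 1 complex, did not move together: Fgb was higher, Fgg was under 2-fold and Fga was dim on both arrays. Afp, Apob, Ttr, Cdx2 and Col3a1 were named as markers of the day 7 cells with these data known, so that their being higher is no check of the label. Col3a1 and Cdx2 are no hepatocyte markers, and albumin, the defining product of hepatocytes, was not well above background on day 7. The other markers, Afp, Apob and Ttr, are made by fetal liver and by yolk sac alike.

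**Figure D3:**
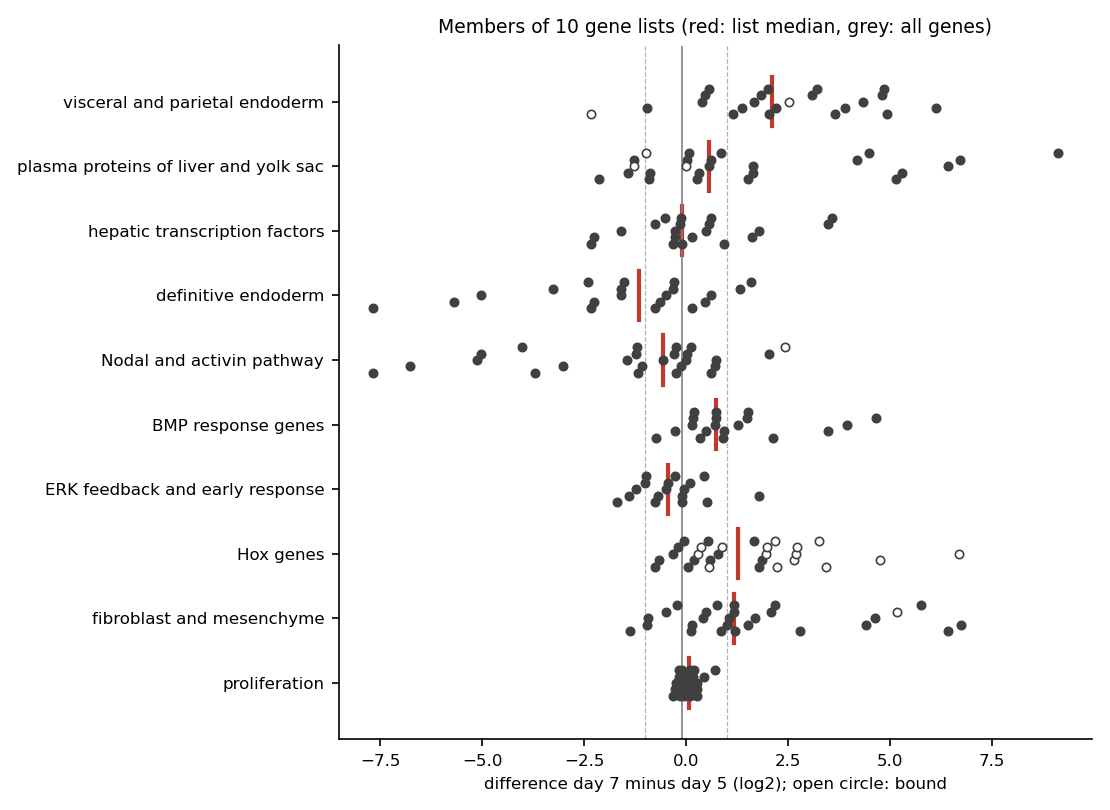
Difference between day 7 and day 5 (log2, horizontal axis) for each compared member of 10 gene lists (rows), with filled circles for differences measured on both arrays, open circles for bounds, red bars for the list medians, a grey line for the median of all genes and dashed lines at 2-fold. Visceral and parietal endoderm genes have a median of 2.12 and definitive endoderm genes of -1.14, and all 25 proliferation genes lie within 2-fold.

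Transcription factors of the liver went both ways, with 4 of 20 higher, 3 lower and a median of -0.10. Among those higher were Creb3l3, a liver and gut factor of lipid metabolism (11.9-fold), Tbx3, required for liver bud growth and also active in ES cells (11.2-fold), and Hnf4a, a nuclear receptor central to hepatocyte identity (3.44-fold). Hnf4a stood at -3.74, -1.0 and 0.79 on days 0, 5 and 7, and its 2 other probes were higher by 0.65 and 1.01 (log2). Those lower were Hhex, needed for the liver bud (5.05-fold), Nr5a2 (4.75-fold) and Gata6 (3.01-fold). Hhex stood at -0.18, 4.09 and 1.75, and its other probe was lower by 2.26 as well (log2 difference -2.26). One of the 2 other Gata6 probes differed by -0.07 only. Foxa2, around which the series was designed, stood at 4.29 ± 0.070 on day 5 and 3.98 ± 0.091 on day 7 (SD of 10 spots), a difference of -0.31. Foxa1 (-0.76), Foxa3 (-0.15), Gata4 (0.61), Onecut1 (-0.09), Onecut2 (-0.11), Cebpa (-0.26) and Cebpb (-0.50) were under 2-fold as well. The other Cebpa probe, dim on day 7, gave a bound of -1.20. The Prox1 probes disagreed: the one used differed by 0.57 and another by 0.20, but the third went from -3.26 on day 5 to -6.76 on day 7, a difference of -3.50. The nuclear receptors Nr1h4 and Nr1i2 were dim on both arrays.

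Genes of mature liver function moved in both directions. Of 14 hepatocyte enzymes compared, 3 were higher and 3 lower (median 0.10), and 6 others, among them Adh1, Cps1, Cyp2e1, Hpd and Ugt1a1, were dim on both arrays. Tdo2, which breaks down tryptophan, was 19.3-fold higher. Arg1, the last enzyme of the urea cycle, was 3.76-fold higher (0.97 in log2 units under refitted normexp). The lower enzymes were Fbp1 of gluconeogenesis (4.76-fold), Otc of the urea cycle (2.23-fold) and Cyp1a2 (at least 2.14-fold). Otc and Cyp1a2 were within 2-fold in 3 or more alternative settings (-0.44 and -0.55 under refitted normexp), and 1 of 2 other Otc probes had the opposite sign (0.92). Coagulation and complement genes had 6 of 16 higher and 2 lower (median 0.10). Plg, the precursor of plasmin, was 9.76-fold, Masp1 8.66-fold, the protease inhibitor relative Serpinf1 9.52-fold and clotting factor F10 7.05-fold higher, whereas Proc was 11.6-fold and F5 2.42-fold lower. The 2 other Masp1 probes were higher by 1.18 and, dim on day 5, by a bound of 0.99. Lipoprotein assembly and lipid uptake had 8 of 16 higher and 1, Apobec1, lower (median 1.16). The Apobec1 call is not firm: it was -1.12 in the main setting and -0.85 under refitted normexp, the other probe differed by -0.34, and no gene of the list was lower with quantile normalisation, median scaling or the median over probes. Mttp, which loads lipid onto Apob, was 7.91-fold and Soat2, a cholesterol esterifying enzyme, 12.0-fold higher. Of 9 textbook Foxa2 targets compared, 5 were higher and 1, Shh, was lower (median 1.62). Afp, Apob and Ttr are in this list as well as in the plasma protein list.

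Extraembryonic endoderm genes had the highest share of higher members among the 42 lists. Of 22 visceral and parietal endoderm genes, all compared, 17 were higher on day 7 and 1 was lower, with a median of 2.12. The endocytic machinery of visceral endoderm was among them. The adaptor Dab2 stood at -1.46, 0.40 and 5.34 on days 0, 5 and 7 (30.8-fold above day 5), the receptor Cubn at -1.51, -1.31 and 3.49 (27.9-fold) and its partner megalin (Lrp2) at 0.67, 0.17 and 4.52 (20.4-fold). Their partner Amn was 3.17-fold higher. In all of these the day 7 array was the highest of the 3. Tfec was 70.0-fold higher, laminin alpha 1 (Lama1) 29.0-fold, the hedgehog ligand Ihh 15-fold, Sox7, a factor of parietal and visceral but little of definitive endoderm, 12.6-fold, the cathepsin Ctsh 9.28-fold and Cited1 8.50-fold. Col4a1 (2.60-fold), Col4a2 (3.60-fold) and Sparc (2.22-fold), made in quantity by parietal endoderm, were higher too. Thrombomodulin (Thbd), a parietal endoderm marker, was at least 5.00-fold lower (-0.82 in log2 units under refitted normexp). Pdgfra (-0.97), Lamb1 (0.40), Lamc1 (0.47) and Slc39a8 (0.56) were under 2-fold. The summed linear signal of the list, in units of each array's 75th percentile, came to 87.1 (day 0), 214 (day 5) and 688 (day 7). Such sums, here and below, are weighted toward a list's brightest members. The part that visceral endoderm cells may have in the serum protein signals was not tested.

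Definitive endoderm markers were lower as a group on day 7. Of 20 genes, 10 were lower and 2 higher, with a median of -1.14. Besides Cer1, Trh and Gsc, the homeobox factor Lhx1 was 9.66-fold lower, the chemokine receptor Cxcr4, a surface marker of definitive endoderm, 5.29-fold, Otx2 4.81-fold, the Wnt antagonist Dkk1 3.01-fold and the surface receptor Kit 2.89-fold lower. Lhx1 stood at -3.76 ± 0.060, 6.30 ± 0.078 and 3.03 ± 0.065 on days 0, 5 and 7 (SD of 9, 9 and 10 spots), so that day 7 lay between the others. Not every marker was lower: Sox17 (4.83 on day 5 and 4.20 on day 7) differed by -0.63, Foxa2 by -0.31, Epcam by -0.49 and Cldn6 by 0.47. The 3 other Sox17 probes differed by -0.93, -0.35 and -1.11. Nepn (3.03-fold) and the protease Tmprss2 (2.52-fold) were higher. The 18 primitive streak and mesendoderm genes had 8 lower and 1, Wnt3a (12.8-fold), higher, with a median of -0.81. T (Brachyury) was under 2-fold, at 0.73 ± 0.070 on day 5 and 1.31 ± 0.147 on day 7 (SD of 10 spots).

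Activin A was in the medium on both days. Genes of the Nodal and activin pathway were more often lower than higher on day 7. Of 25 genes, all compared, 12 were lower and 2 higher, with a median of -0.56. By role, the ligands Gdf3 (16.2-fold), Inhbb (13.1-fold) and Nodal itself (2.29-fold) were lower, Inhba, the subunit of activin A, was at least 5.42-fold higher and Gdf1 was under 2-fold (0.70). Refitted normexp gave log2 differences of -2.37 (Gdf3) and 1.15 (Inhba). The other Inhbb probe differed by -0.18. Nodal stood at 3.05, 4.16 and 2.96 on days 0, 5 and 7. The co-receptor Tdgf1 was 8.04-fold lower, while Cfc1 (-0.29) and the receptors Acvr1b (-0.13), Acvr2a (-0.24) and Acvr2b (-0.56) were under 2-fold. So were the signal transducers Smad2 (0.62), Smad3 (0.13), Smad4 (0.01) and Foxh1 (0.00). Of the inhibitors, Lefty1, Lefty2 and Cer1 were lower as given above, Pmepa1 was 2.71-fold lower, the activin-binding protein Fst was 4.09-fold higher, and Smad7 (0.73) and Skil (-0.24) were under 2-fold. The target genes Gsc, Mixl1 (2.27-fold) and Eomes (2.12-fold) were lower. Eomes was under 2-fold with median scaling. The summed linear signal of the list came to 65.0 (day 0), 338 (day 5) and 92.6 (day 7), in units of the 75th percentile. This sum is weighted toward bright members such as Lefty1 (7.08 on day 5), and 11 of the 25 genes were under 2-fold.

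BMP4 was the first of the added factors. Of 19 genes known to respond to BMP, 7 were higher, 0 lower and 12 under 2-fold, with a median of 0.73. Msx2, a homeobox target of BMP, stood at -2.33 ± 0.043, -2.51 ± 0.063 and 2.16 ± 0.056 on days 0, 5 and 7 (SD of 10 spots), 25.4-fold higher on day 7 than on day 5. Day 0 cells, which also had BMP4 in their medium, had an Msx2 signal close to that of day 5. Hand1, a factor of lateral mesoderm and extraembryonic tissue, was 15.6-fold, Tbx3 11.2-fold, Id2 4.37-fold, Gata2 2.89-fold, the inhibitory Smad gene Smad6 2.84-fold and Tbx20 2.42-fold higher. Of the 3 other Tbx20 probes, 2 were higher by 1.60 and 1.49, and 1, dim on day 5, gave a bound of 0.13. Id2 stood at 2.86, 0.63 and 2.75, lowest on day 5, and its other probe was higher on day 7 than on day 5 by 2.62 (log2). The part of BMP4 in the Msx2 and Id2 signals was not tested, and the day 0 medium also differed in LIF and activin A. The direct BMP targets Id1 and Id3 were under 2-fold. Id1 stood at 3.97, 3.43 and 4.15 (difference 0.72) and Id3 at 1.84, 3.20 and 3.38 (0.18). Id4 (0.36), Smad7 (0.73), Bambi (0.50), Atoh8 (0.91), Msx1 (0.19), Nog (0.73), Tbx2 (0.94), Gata3 (0.15), Smad9 (-0.74) and Dlx5 (-0.28) were under 2-fold as well. Gata2 was below 2-fold under refitted normexp (0.94). Among 20 BMP ligands, receptors and antagonists, 7 were higher and 3 lower (median 0.19). Gdf6 (at least 26.6-fold), Bmp4 itself (9.91-fold), Bmp6 (8.99-fold) and Bmp5 (4.98-fold) were higher, as was the antagonist Bmper (4.98-fold), and the antagonists Grem1 (at least 4.28-fold) and Twsg1 (2.50-fold) were lower. Refitted normexp gave log2 differences of 3.16 (Gdf6), 1.75 (Bmp6) and -1.04 (Grem1). Bmp4 stood at 1.38 ± 0.049, -1.31 ± 0.079 and 2.00 ± 0.078 (SD of 10 spots), lowest on day 5. The other Bmp6 probe, dim on day 5, gave a bound of 0.21.

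Basic FGF, the other factor added, acts largely through the ERK kinase cascade, whose feedback genes are a common readout. Of 17 such genes, 1 was higher, 4 were lower and 12 were under 2-fold, with a median of -0.43. The phosphatase gene Dusp6, an ERK target, stood at 2.99, 3.81 and 2.40 on days 0, 5 and 7, 2.66-fold lower on day 7 than on day 5. The early response gene Egr1 was 3.22-fold, Spred3 2.33-fold and Etv1 2.02-fold lower. Spred3 (-0.77) and Etv1 (-0.98) were below 2-fold under refitted normexp. Phlda1 was 3.48-fold higher. The feedback inhibitors Spry1 (0.52), Spry2 (-0.05), Spry4 (-0.43), Spred1 (0.11), Spred2 (-0.68) and Dusp4 (0.45) and the FGF target factors Etv4 (-0.09) and Etv5 (-0.11) were under 2-fold. Of 14 FGF ligands and receptors, 2 were higher and 3 lower (median 0.17). Those higher were Klb (25.1-fold) and Fgfr4 (14.0-fold), which together form the receptor of the gut hormone FGF15 on hepatocytes, although the 2 other Fgfr4 probes were higher by 0.85 and 2.56 (log2). The streak ligand Fgf8, at -2.82 ± 0.104, 3.95 ± 0.054 and 1.03 ± 0.077 (SD of 7, 10 and 10 spots), was 7.61-fold lower, and Fgf5 was 3.27-fold lower. Fgf9 was 2.2-fold lower, and under 2-fold in 4 alternative settings (-0.55 under refitted normexp).

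Other signalling pathways showed members on both sides. Of 16 Wnt ligands and secreted antagonists, 7 were higher and 5 lower (median 0.44). Wnt4 (9.16-fold), the Wnt enhancer Rspo3 (8.39-fold) and Wnt6 (4.48-fold) were higher with the antagonist Dkk2, and Frzb (5.49-fold), Sfrp1 (4.36-fold), Dkk1, Sfrp2 (2.34-fold) and Sfrp5 (2.31-fold), all antagonists, were lower. Wnt targets had 3 of 15 higher and 3 lower (median 0.47), with the receptor gene Tnfrsf19 8.92-fold higher, Nkd1 3.17-fold higher and Myc 3.16-fold lower. In the Notch pathway 4 of 12 genes were lower and 1 higher (median -0.74). The ligands Jag1 (7.43-fold), Dll3 (5.76-fold) and Dll1 (2.56-fold) and the target Hes1 (2.32-fold) were lower, and Hey2 was 5.08-fold higher. In the Hedgehog pathway the ligands parted, Ihh being 15-fold higher and Shh at least 7.75-fold lower (1 of 10 genes higher, 2 lower). Under refitted normexp Shh was lower by less (log2 difference -1.18). Retinoid genes had 4 of 15 higher and 3 lower (median 0.05). The enzymes that make retinoic acid, Aldh1a1 (15.1-fold), Aldh1a2 (8.81-fold), Aldh1a3 (at least 3.47-fold) and Rdh10 (5.05-fold), were higher, and the receptor Rarb (8.71-fold) and the degrading enzyme Cyp26a1 (2.21-fold) were lower. Cyp26a1 was under 2-fold with median scaling.

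Genes of the hindgut and intestine included Cdx2, one of the greatest differences. Cdx2, a factor of the hindgut, the tail bud and trophoblast, stood at -1.96, -6.19 and 0.71 on days 0, 5 and 7, lowest on day 5. Its probe lies on chromosome 5 at 148112547 to 148112606 (mm9). Of 15 intestine and hindgut genes compared, 5 were higher and 2 lower (median 0.00, which is a bound set to 0). The fatty acid binding proteins Fabp1 (at least 16-fold) and Fabp2 (7.00-fold), the mucin Muc13 (3.83-fold) and villin (Vil1, 2.81-fold) were higher, and the other Fabp2 probe, dim on day 5, gave a bound of 0.47. The related caudal factor Cdx4 was at least 7.08-fold lower and Gpa33 at least 2.88-fold lower, Gpa33 below 2-fold under refitted normexp (-0.85). Cdx1, Cdh17 and Isx were dim on both arrays, and Lgr5 (0.10), Hnf4g (-0.08), Anxa13 (-0.58) and Lgals4 (-0.74) were under 2-fold. Fabp1 is also made by fetal liver and visceral endoderm. Hox genes, which mark position along the body axis, had 14 of 28 members higher and 0 lower (median 1.28). Of these 14, 11 were bounds, and over the 13 Hox genes well above background on both arrays the median was 0.19. Hoxb2 (at least 103-fold), Hoxb7 (at least 10.8-fold) and Hoxa11 (at least 9.61-fold) were among them. Measured on both arrays, Hoxa7 was 3.63-fold, Hoxb4 3.47-fold and Hoxc6 3.19-fold higher, the last 2 below 2-fold under refitted normexp (0.78 and 0.80). Other probes of some Hox genes differed from the probe used. One for Hoxb6 was measured at 3.20 against -0.04, and bounds for Hoxb3 and Hoxb9 were 4.27 and 2.87 against 0.80 and 0.60. The other Hoxb2 probe gave a smaller bound, 2.75 against 6.69. With the median over probes, 17 of the 28 Hox genes were higher (median 1.76). Another 10 Hox genes were dim on both arrays. Of 16 foregut, pancreas, lung and thyroid genes only 9 could be compared, 2 higher and 3 lower; Pdx1, Ptf1a, Nkx2-1, Pax8 and Sftpc were among the 7 dim on both.

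Genes of mesenchyme were higher. Of 27 fibroblast and mesenchyme genes compared, 16 were higher and 1 was lower, with a median of 1.17. Among the fibrillar collagens, Col1a1 stood at -1.80 ± 0.079, -2.96 ± 0.092 and 2.81 ± 0.051 on days 0, 5 and 7 (SD of 10, 10 and 9 spots), 54.3-fold higher on day 7 than on day 5, and its other probe was higher by 4.47 (log2). Col3a1 stood at -4.69, -4.96 and 1.79, but its other probe, dim on day 5, gave a bound of 0.17 only. Col1a2 was 2.85-fold and Col5a1 2.30-fold higher, and Col5a2 (0.13) was under 2-fold. Of the matrix glycoproteins, Postn stood at -6.15, -5.06 and 1.37, Lum was at least 36.3-fold and Dcn 6.91-fold higher. Of the factors that drive mesenchymal state, Twist2 (24.7-fold) and Snai2 (21.2-fold) were far higher, Zeb2 (2.28-fold) and Twist1 (2.06-fold) little, and Zeb1 (0.49) and Snai1 (-0.76) were under 2-fold. Pdgfrb (4.51-fold) and Tagln (4.25-fold), of smooth muscle and pericytes, were higher. Vim (0.76), Cdh2 (0.42), Cdh11 (-0.23), Fn1 (0.86), Thy1 (-0.93) and Pdgfra (-0.97) were under 2-fold, and Col6a2 was 2.57-fold lower (-0.56 under refitted normexp). The other Col6a2 probe, dim on day 7, gave a larger bound of -4.01 (log2, main setting). The probes of Acta2, smooth muscle actin, disagreed: the brightest differed by 0.14 and another by 0.20, while 2 were higher by 2.67 and 2.71 (log2), all well above background on both arrays. The summed linear signal of this list came to 45.9 (day 0), 68.1 (day 5) and 133 (day 7).

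Genes of other mesoderm and of neighbouring tissues followed in part. Of 21 cardiac and lateral mesoderm genes, 10 were higher and 4 lower (median 0.83). The sarcomere genes Tnni1 (9.65-fold) and Tnnt2 (8.80-fold) and the factors Nkx2-5 (5.50-fold) and Mef2c (5.34-fold) were higher with Hand1, whereas Myl7 (4.47-fold), Myl2 (4.64-fold) and Gata5 (at least 6.33-fold) were lower. Under refitted normexp Myl7 (-2.17 on the log2 scale) moved little, while Myl2 (-1.04) and Gata5 (-1.26) shrank. Septum transversum and mesothelium genes had 5 of 10 higher and 1, Tcf21 (4.55-fold, but -1.07 in log2 units under refitted normexp), lower (median 1.04). Under refitted normexp, 3 of these 10 were higher (median 0.78). Endothelial genes had 6 of 18 higher and 1 lower (median 0.57). Fli1 (3.70-fold) and Cd34 (2.62-fold) were higher, and Kdr, the VEGF receptor, was under 2-fold (0.77). Pecam1 (at least 2.74-fold), Erg (at least 3.50-fold) and Tek (2.23-fold) were below 2-fold under refitted normexp. Blood and macrophage genes had 5 of 13 higher, among them Tal1 (4.89-fold) and Csf1r (5.39-fold), and 1, Gata1, lower. Refitted normexp gave log2 differences of 1.24 (Tal1) and 1.14 (Csf1r). The other Csf1r probe differed by 0.32, and Ptprc and Spi1 were dim on both arrays. Neural and neural crest genes had 2 of 15 higher and 3 lower (median -0.19), with Pax7 13.9-fold and Foxd3 17.9-fold lower. The part that mesodermal cells in the culture may have in these values was not tested.

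Genes of undifferentiated states were more often lower than higher on day 7 than on day 5. Of 23 pluripotency genes, 11 were lower and 3 higher (median -0.93). Pou5f1 stood at 3.26, 0.88 and -0.88 on days 0, 5 and 7 (3.39-fold below day 5) and Nanog at 2.85, 0.21 and -1.20 (2.65-fold). In both, each later array was lower than the one before. Dppa5a was 15.2-fold and Zfp42 13.3-fold lower, Sox2 was under 2-fold (-0.73), and Tbx3, Klf4 (7.56-fold) and Tfcp2l1 (3.27-fold) were higher. The 2 other Tfcp2l1 probes, dim on day 5, gave bounds of 1.60 and 0.00. Klf4 stood at 5.70, 0.19 and 3.11, between its day 0 and day 5 signals. Postimplantation epiblast genes had 5 of 12 lower and 0 higher (median -0.88), among them Otx2, Fgf5, Zic2 (5.59-fold) and Pou3f1 (5.36-fold). Their summed linear signal was highest on day 5 (41.1, 159.5 and 68.5 on days 0, 5 and 7). Fgf5 stood at -1.54, 5.50 and 3.79, so that day 7 was still far above day 0, and Otx2 at 3.45, 5.55 and 3.28. Trophoblast genes had 4 of 15 higher and 6 lower (median 0.15). Plac1 was 10.0-fold higher beside Cdx2 and Hand1, while Krt7 (15.4-fold), Elf5 (4.47-fold) and Tfap2c (2.80-fold) were lower. Cdx2 and Hand1, counted here too, are not peculiar to trophoblast.

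**Figure D4:**
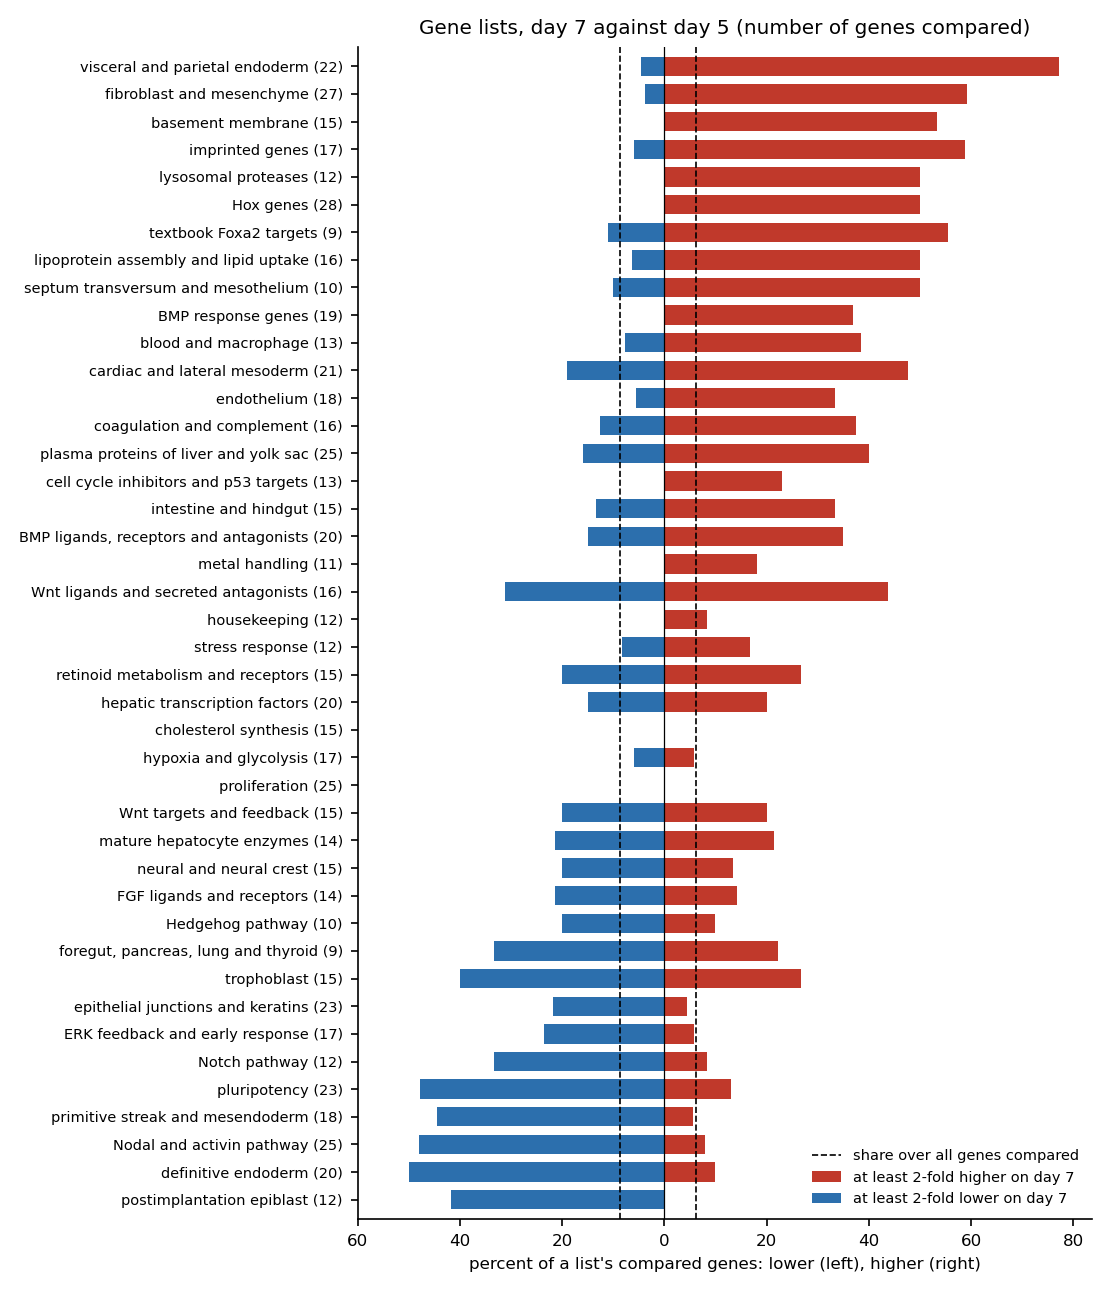
Percent of each list's compared genes that were at least 2-fold higher (red, right) or lower (blue, left) on day 7 than on day 5, for 42 lists with the number of genes compared in brackets, and dashed lines at the shares over all genes (6.23% higher, 8.75% lower). Visceral and parietal endoderm, with 17 of 22 genes higher, stands at the top, and postimplantation epiblast, with 5 of 12 lower and 0 higher, at the bottom.

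Among general cell functions, proliferation genes were level, with 0 of 25 higher and 0 lower and a median of 0.06. Mki67 stood at 4.21 on day 5 and 4.48 on day 7. The cell cycle inhibitor Cdkn1c, an imprinted gene, was 4.41-fold higher, Cdkn2b 2.29-fold and Cdkn2a 2.33-fold (0.99 in log2 units under refitted normexp, just under 2-fold), and Cdkn1a was level at 2.36 ± 0.055 and 2.37 ± 0.051 (SD of 10 and 9 spots). Imprinted genes had 10 of 17 higher and 1, Grb10 (2.47-fold), lower (median 1.14). The growth factor Igf2 stood at 1.89 ± 0.070, 3.27 ± 0.058 and 6.04 ± 0.111 on days 0, 5 and 7 (SD of 10, 10 and 9 spots), 6.78-fold higher on day 7 than on day 5. The neighbouring H19 was 4.93-fold, Plagl1 16.4-fold and Dlk1, a surface marker of fetal liver cells, 4.96-fold higher. Basement membrane genes had 8 of 15 higher and 0 lower (median 1.14), led by Lama1 and Lama4 (6.49-fold). Lysosomal proteases had 6 of 12 higher and 0 lower (median 0.95), with Lgmn 3.66-fold and Ctsl 2.82-fold higher after Ctsh. Epithelial junction and keratin genes had 5 of 23 lower and 1, Krt19 (3.75-fold), higher (median 0.14). Krt7 and Cldn3 (3.37-fold) were lower, as was Cdh1, at 4.46 on day 5 and 3.42 on day 7 (2.06-fold, under 2-fold with median scaling). Cholesterol synthesis genes were all under 2-fold (median 0.31 over 15). So were 15 of 17 hypoxia and glycolysis genes (median -0.32), with Ndrg1 3.17-fold higher and Adm 2.48-fold lower (-0.97 under refitted normexp, under 2-fold). Stress response genes had 2 of 12 higher and 1 lower (median 0.40), led by Atf3 (7.92-fold). Metal handling genes had 2 of 11 higher and 0 lower (median 0.22), which were Mt1 (2.35-fold) and the iron exporter Slc40a1 (2.00-fold). Of 12 housekeeping genes, 11 were under 2-fold, with Actb at -0.10 and Gapdh at -0.27, and B2m, of the class I antigen complex, was 2.43-fold higher.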

How the data were processed

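Total RNA of E14.1 cells was labelled with Cy3 and hybridised to 1 Agilent array per day, all on 1 slide. Per the file headers, the authors extracted the arrays with Agilent Feature Extraction 10.5.1.1, and probe positions are in mm9 (NCBI37). The deposited scanner files hold linear intensity values for every spot. The background-corrected processed signal was used, and the mean signal and local background served an alternative. The deposited value table holds log2 values. Set against the scanner files, its columns correlated at 0.9998 or above with the log2 processed signal and had 1 distribution (median 7.17); it is not centred per gene, with the equalising step not given in the sources used here.

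Control spots and outlier spots (104 on day 5, 131 on day 7) were left out, log2 was taken, each array's 75th percentile (2051 and 2053 intensity units) was subtracted, and spots of 1 of the 41174 probes were averaged. Probes were named by RefSeq accession (24844) or symbol (6045) in a table for GRCm38.p6, and 10285 kept the name in the files. A gene was represented by the probe well above background on the most arrays, then the brightest. A probe not well above background was raised, where lower, to the array's lowest value of a probe that was, and a bound of the wrong sign to 0. Genes were called at 2-fold. With 1 array per day there was no test.

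The rule for named genes took the 15 greatest differences each way measured on both arrays, the 8 greatest bounds each way (without clone, accession, RIKEN, LOC, Gm, olfactory and vomeronasal receptor names), 40 markers, up to 5 members each way of each of 42 gene lists, and all members of 9 lists. A few of these genes are not reported here but remain in the list counts. Members and lists were chosen with earlier results of these data known. Calling was tested on simulated data that held spot noise only, so the simulation cannot show how calls fare with differences between cultures. Python 3.11.15 with NumPy 2.4.6, pandas 2.3.3 and matplotlib 3.10.9, and limma 3.58.1 in R 4.3.3 (normexp) were used. The alternatives changed the filter, background correction, scaling, probe rule, outlier spots and threshold.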

Additional observations from a re-analysis of the deposited data

How the results depend on the processing

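Against 1292 higher and 1815 lower genes, the normexp correction with an offset of 50 gave 6283 higher and 439 lower. On day 7 that fit included 6 spots darker than their local background, the lowest by -9752.94 units, and its fitted background was -344 against 1.91 when refitted without them; the refit was added after seeing the data. The refitted correction gave 928 higher and 1015 lower. A 1.5-fold limit gave 2311 and 3502, and a 4-fold limit 484 and 557. The other alternatives (filter on both arrays, no filter, quantile normalisation, median scaling, the authors' deposited value table, median over probes, outlier spots kept) moved neither count by over 1.5 times. Through the refitted correction, both scalings, the authors' table, outlier spots and the median over probes, 884 higher and 944 lower genes kept their call. Of 285 named genes past 2-fold, 107 were over 1.5 times smaller with the refitted correction. Of the same 285, 39 fell under 2-fold with it and 0 changed sign. With the first normexp fit alone, 14 changed sign, to log2 differences of 1.15 (Actn2), 0.20 (Adm), 0.29 (Apobec1), 0.59 (Ascl2), 1.28 (Col6a2), 1.03 (Elavl3), 1.28 (Fgf9), 1.48 (Kng1), 0.99 (Myl2), 0.089 (Nr5a2), 0.79 (Nupr1), 1.5 (Otc), 0.67 (Spred3) and 0.91 (Tcf21). Over all genes called, the first normexp fit kept 1231 of the 1292 higher and 415 of the 1815 lower calls. It made 273 of the lower genes at least 2-fold higher, and 0 of the higher genes at least 2-fold lower. Median scaling moved the median of all genes from -0.09 to 0.06. Of 752 called genes with another probe compared, 470 had all other probes past 2-fold the same way, and 9 had 1 past 2-fold the opposite way. No paired analysis was possible because each day has 1 array, and no array could be left out for the same reason. Signal over background limits what can be said of the 7842 names dim on both arrays, and the number of arrays limits the precision of all values.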
